A study of Mus musculus with 24 samples.

Results

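The histone acetyltransferases described here are 10 genes: Hat1, Kat5, Ep300, Crebbp, Kat2a, Kat2b, Kat6a, Kat6b, Kat7 and Kat8. Every array probe whose gene name in the scanner files was one of these symbols or its older form (Htatip, Gcn5l2, Pcaf, Myst3, Myst4, Myst2 or Myst1) was taken, which gave 20 probes. Of these, 19 gave a signal well above background on 4 or more of the 24 arrays and were tested, and all 10 genes had at least 1 tested probe. The array had 25627 genes with a tested probe, a count in which an unmatched gene name or probe stands as a gene of its own. Ep300 had 4 tested probes, Crebbp and Kat6b 3 each, Kat2b and Kat7 2 each, and the other genes 1 each. The measurements come from whole hippocampus of 24 C57Bl/6 mice, 1 mouse on each Agilent 1-colour array, in 6 groups of 4. Fear-conditioned mice aged 16 months (old fear) and 3 months (young fear) explored a new chamber for 3 min, then received 1 foot shock of 0.7 mA for 2 s, and were sampled 1 h later. Shock-context mice, aged 3 months, were shocked on entry and explored afterwards, and context mice of the same age explored without a shock. Both of these groups were also sampled 1 h later. Old control and young control mice, aged 16 and 3 months, were handled only. The series asks which hippocampal genes answer to training at each age, and the acetyltransferases are the enzymes that write histone acetylation.

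Histone acetyltransferases move an acetyl group from acetyl-CoA onto lysines of histone tails, which loosens the contact of the tail with DNA and makes docking sites for bromodomain proteins. They fall into families: the GNAT enzymes (Hat1, Kat2a, Kat2b), the paralogous coactivators Ep300 and Crebbp, and the MYST enzymes (Kat5, Kat6a, Kat6b, Kat7, Kat8). In hippocampal neurons, acetylation by Crebbp and its relatives is known from mouse genetics to be needed for normal long-term memory, and acetylation of lysine 12 on histone H4, a site that Hat1 and Kat5 can modify, has been tied to memory in ageing mice.

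The sequences below are those of 1 probe for each of 7 genes, as the scanner files give them, because each result is a signal at such a 60-base stretch and not at a whole transcript. Genome positions refer to mm9, the build that the scanner files name, and the files do not say which exon or UTR a probe lies in. The Hat1, Kat5 and Kat2b probes cross splice junctions, since their genomic spans of 12375, 141 and 3422 bases exceed the length of the probe. Only spliced RNA matches their full length in a single run, and how their bases divide between exons was not placed. The other 4 probes each match a single run of 60 bases. No letters are in capitals, because no base within a probe is set apart by the data.
Hat1, A_51_P369636, chr2:71259747-71272121, + strand: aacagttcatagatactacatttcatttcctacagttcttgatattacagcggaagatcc
Kat5, A_52_P584109, chr19:5603519-5603659, - strand: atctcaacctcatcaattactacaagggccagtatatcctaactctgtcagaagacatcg
Ep300, A_52_P179662, chr15:81480690-81480749, + strand: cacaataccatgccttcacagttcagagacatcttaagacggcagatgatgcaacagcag
Crebbp, A_52_P239850, chr16:4084795-4084854, - strand: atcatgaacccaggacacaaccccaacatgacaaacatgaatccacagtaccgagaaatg
Kat2a, A_51_P312528, chr11:100566573-100566632, - strand: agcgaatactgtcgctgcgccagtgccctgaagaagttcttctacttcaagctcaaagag
Kat2b, A_52_P87955, chr17:53799491-53802912, + strand: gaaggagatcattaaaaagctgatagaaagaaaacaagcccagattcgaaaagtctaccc
Kat6a, A_52_P411358, chr8:24046004-24046063, + strand: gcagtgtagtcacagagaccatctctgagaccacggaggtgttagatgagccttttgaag

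All levels below are log2 of the processed signal minus the 75th percentile of the same array, so a level of 0 is the signal at that percentile. Differences are log2 differences between group means with the SE of the fit, and a difference is called where limma's adjusted p, over all tested probes, is under 0.05. Levels of different probes were not compared with each other. The control and fear arrays, 16 in number, shared 1 scan run (75th percentile of signal 757 to 2137, 86.2 to 93.9% of probes well above background) and the 8 context and shock-context arrays in another (3101 to 8369, 75.1 to 81.4%), so that run and group cannot be told apart between those sets. Within each control and fear group, replicates 1 and 2 resembled one another and so did replicates 3 and 4, with a consensus correlation of 0.371 within such pairs. The precision rests on 4 arrays per group. Each of 9 markers of hippocampal excitatory neurons was well above background on at least 1 array of every group. Their summed linear level, relative to the 75th percentile, was 52.7 to 64.6 in young fear and 69.2 to 79.1 in young control arrays. It was 57.1 to 74.1 in old fear, 67.6 to 86.0 in old control, 54.5 to 55.6 in context and 53.0 to 62.5 in shock-context arrays. Of the 9 markers, 1 was called higher and 3 lower in young fear than in young control mice. Their median difference was 0.14, and 44.6% of all tested probes were called in that comparison. Fos, an immediate early gene induced by neuronal activity, was higher by 2.41 ± 0.29 in young fear than in young control mice. In old fear mice it was higher by 1.78 ± 0.29 than in old control mice. Context (1.65 ± 0.29) and shock-context mice (1.36 ± 0.29) also had more Fos than young control mice, across the scan runs.

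The 4 young fear arrays stood apart from all other groups in markers of the choroid plexus, the epithelium of the ventricle that lies against the hippocampus. All 14 measured markers of 15 were called lower in young fear than in young control mice, and their summed linear level was 2.30 to 5.56 in young fear, against 38.0 to 71.2 in young control arrays. It was 39.7 to 51.6 in old fear and 46.0 to 68.6 in old control arrays, where 0 of 14 markers were called, and none of the 14 was below background on every array of a group. Of 14 thalamus markers, 10 were higher and 1 was lower in young fear than in young control mice (summed level 28.8 to 32.4 against 21.1 to 25.4), and 6 were higher in old fear than in old control mice (37.6 to 49.4 against 24.5 to 30.3). Every young fear result below rests on these 4 arrays, and the part of the tissue markers in it was not tested. In bulk tissue, fewer cells of a type and less RNA per cell cannot be told apart.

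After fear conditioning at 3 months, 8 of the 10 acetyltransferase genes were called at 1 or more probes. At the probe of highest mean of each gene, 8 of 10 were called (4 higher and 4 lower). With 1 probe per gene in the fit, 11093 of 25627 genes were called over the array. Of 19 probes, 6 were called higher in young fear than in young control mice: Ep300 (A_52_P411601 and A_52_P179662), Kat2a, Kat6b (A_51_P176459 and A_52_P179250) and Kat7 (A_52_P85156). Another 6 were called lower: Hat1, Kat8, Kat6a and all 3 probes of Crebbp. Kat5 and both probes of Kat2b were not called. The 12 called of 19 stand against 44.6% of all tested probes (17.2% higher and 27.5% lower), so a call in this comparison was common across the array. The median difference was -0.25 over the 19 probes and -0.27 over all tested probes. Quantile normalization moved the array-wide split from 6657 higher of 17307 calls to 8727 of 16700 and the array-wide median to -0.08, while the 19 probes kept 6 calls in each direction. With normexp background correction 6 of the 12 calls were left: Hat1, Kat2a, Kat7, Kat8, Crebbp at A_51_P518851 and Kat6b at A_51_P176459.

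**Figure D1:**
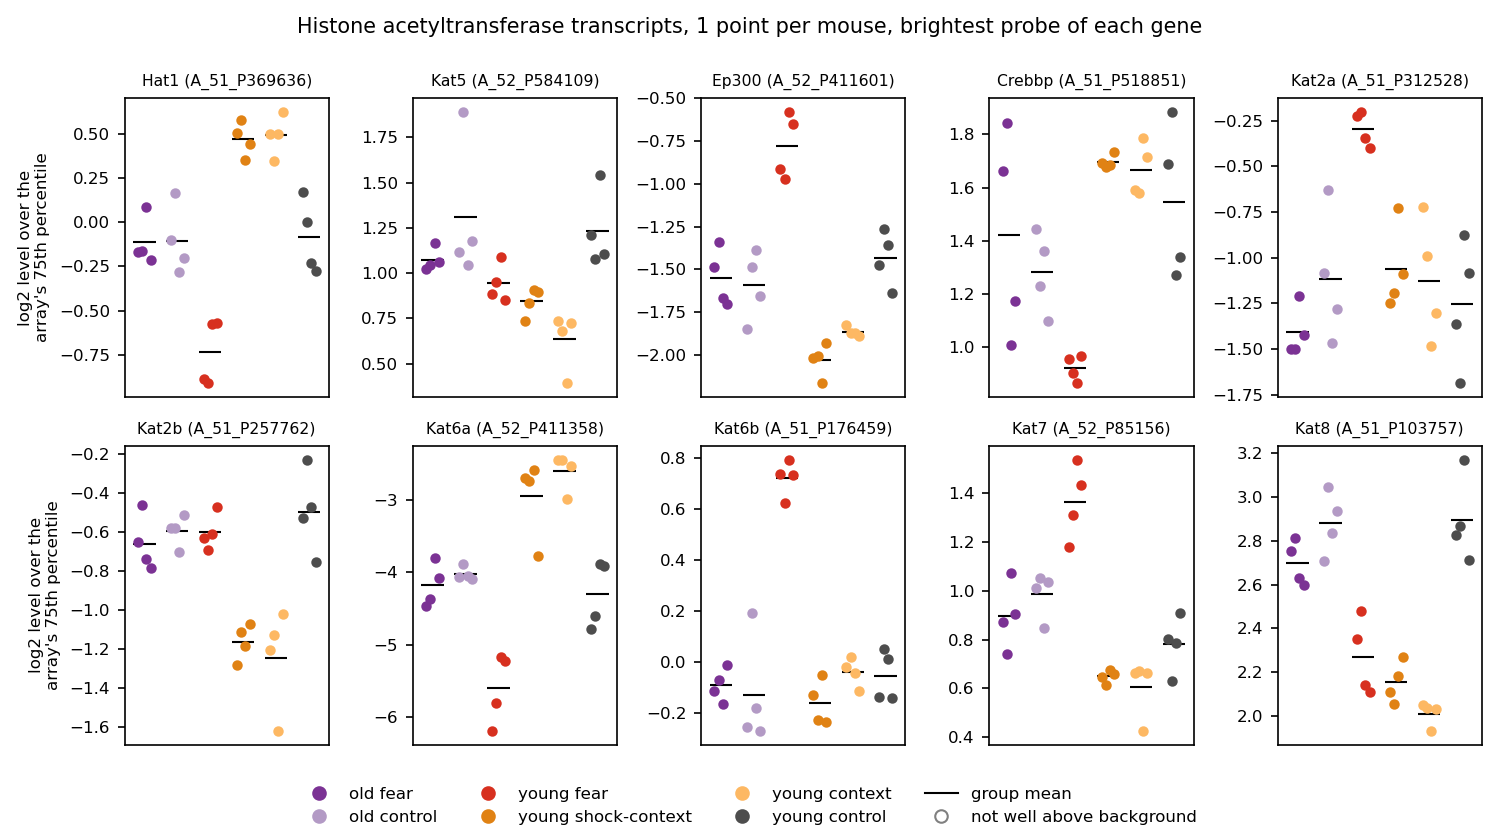
Levels of the brightest probe of each gene, as log2 of signal minus the 75th percentile of the array (vertical axes), for the 6 groups side by side (in the colours of the legend), with a point for each mouse, a black line for the group mean and open points for signals not well above background. The young fear points of Hat1, Kat6a and Crebbp lie below those of all other groups, and those of Ep300, Kat2a, Kat6b and Kat7 lie above them.

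Hat1 adds acetyl groups to newly made histone H4 before it is placed on DNA. Its levels were -0.89, -0.91, -0.58 and -0.57 in the 4 young fear mice, against 0.17, 0.00, -0.23 and -0.28 in the 4 young control mice. All 4 young fear arrays lay below all 20 other arrays of the series. The difference was -0.65 ± 0.12 (1.57-fold lower, adjusted p = 0.000174 by limma), or -0.38 relative to the median of all probes, and it was negative on each of the 4 slides that held an array of both groups (-1.06 to -0.29). Old fear mice had -0.17, -0.16, 0.09 and -0.21, against -0.10, 0.17, -0.28 and -0.20 in old control mice. Those old groups overlapped throughout, and the difference of -0.01 had a 95% interval of -0.26 to 0.24. Across all 6 groups Hat1 was highest in context (mean 0.49) and shock-context (0.47) mice, whose levels overlapped. Young control (-0.08), old control (-0.10) and old fear (-0.11) mice came next and overlapped each other, and young fear mice (-0.74) were lowest.

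Kat5, the catalytic subunit of the TIP60 complex, acetylates histones H4 and H2A in transcription and DNA repair. Its levels were 0.89, 0.95, 1.09 and 0.85 in young fear mice, against 1.21, 1.08, 1.54 and 1.11 in young control mice. A single young fear array, at 1.09, just reached into the young control range, which began at 1.08. The difference of -0.29 ± 0.15 was not called (adjusted p = 0.110 by limma) and had a 95% interval of -0.59 to 0.01, although it was negative on all 4 slides (-0.45 to -0.13). Relative to the median of all probes it was -0.02. In old fear mice Kat5 had 1.02, 1.04, 1.17 and 1.06, against 1.12, 1.89, 1.04 and 1.18 in old control mice. The old control array at 1.89 stood alone, and the difference of -0.23 had an interval of -0.54 to 0.07. Ordered by mean, the groups ran from old control (1.31) through young control (1.23), old fear (1.07), young fear (0.95) and shock-context (0.84) to context mice (0.64), and every neighbour in that order overlapped the next.

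Ep300 encodes p300, a coactivator that CREB and many other transcription factors recruit. The probe nearest the 3′ end of the gene on the array, A_52_P411601 (chr15:81481567-81481626), had -0.91, -0.97, -0.58 and -0.65 in young fear mice, against -1.47, -1.26, -1.36 and -1.64 in young control mice. A_52_P179662, which lies 877 bases upstream and is printed above, had -2.64, -2.58, -2.29 and -2.46 in young fear mice, against -4.03, -3.62, -3.47 and -3.41 in young control mice. At both probes all 4 young fear arrays lay above all 20 other arrays. The differences were 0.66 ± 0.12 (1.57-fold, adjusted p = 0.000105) and 1.14 ± 0.17 (2.20-fold, adjusted p = 1.32e-05 by limma). With normexp background correction they came to 0.41 (adjusted p = 0.207) and 0.36 (adjusted p = 0.548) and were not called. The other 2 Ep300 probes lie 7119 bases (A_51_P304029) and 27493 bases (A_51_P142128) upstream of the last one, and did not follow. A_51_P304029, well above background on 16 of 24 arrays, differed by -0.25 with an interval of -0.95 to 0.44. A_51_P142128 differed by -0.89 ± 0.38 (adjusted p = 0.0602, interval -1.68 to -0.11) and was lower in young fear mice on all 4 slides; with the slide as a block it was called (adjusted p = 0.0291). The estimates at the 4 probes of Ep300 thus disagree in sign, though only the higher ones were called in the main fit. No single value stands for the gene.

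Crebbp, the paralogue of Ep300, encodes the CREB-binding protein. Its 3 probes lie within 1964 bases of each other and all were called lower in young fear mice. The last of them, A_51_P518851 (chr16:4083181-4083240), had 0.96, 0.90, 0.87 and 0.97 in young fear mice, against 1.69, 1.88, 1.27 and 1.34 in young control mice. Every young fear array was below all 20 other arrays there, and the young fear values spanned a narrow range beside the young control values. A_52_P239850, printed above, had -4.25, -3.99, -3.85 and -3.97 in young fear mice, against -3.43, -3.01, -2.52 and -2.78 in young control mice. The differences were -0.62 ± 0.15 (adjusted p = 0.00222, and 0.0510 with median scaling) and -1.08 ± 0.16 (2.11-fold lower, adjusted p = 2.07e-05 by limma). The remaining probe, A_51_P448224, differed by -0.61 ± 0.20 (adjusted p = 0.0157), a call that was lost without young fear replicate 1 (adjusted p = 0.0615). Crebbp and Ep300 thus had opposite signs at the probes called for each gene, though with normexp the Ep300 calls and all Crebbp calls but that at A_51_P518851 were lost.

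**Figure D2:**
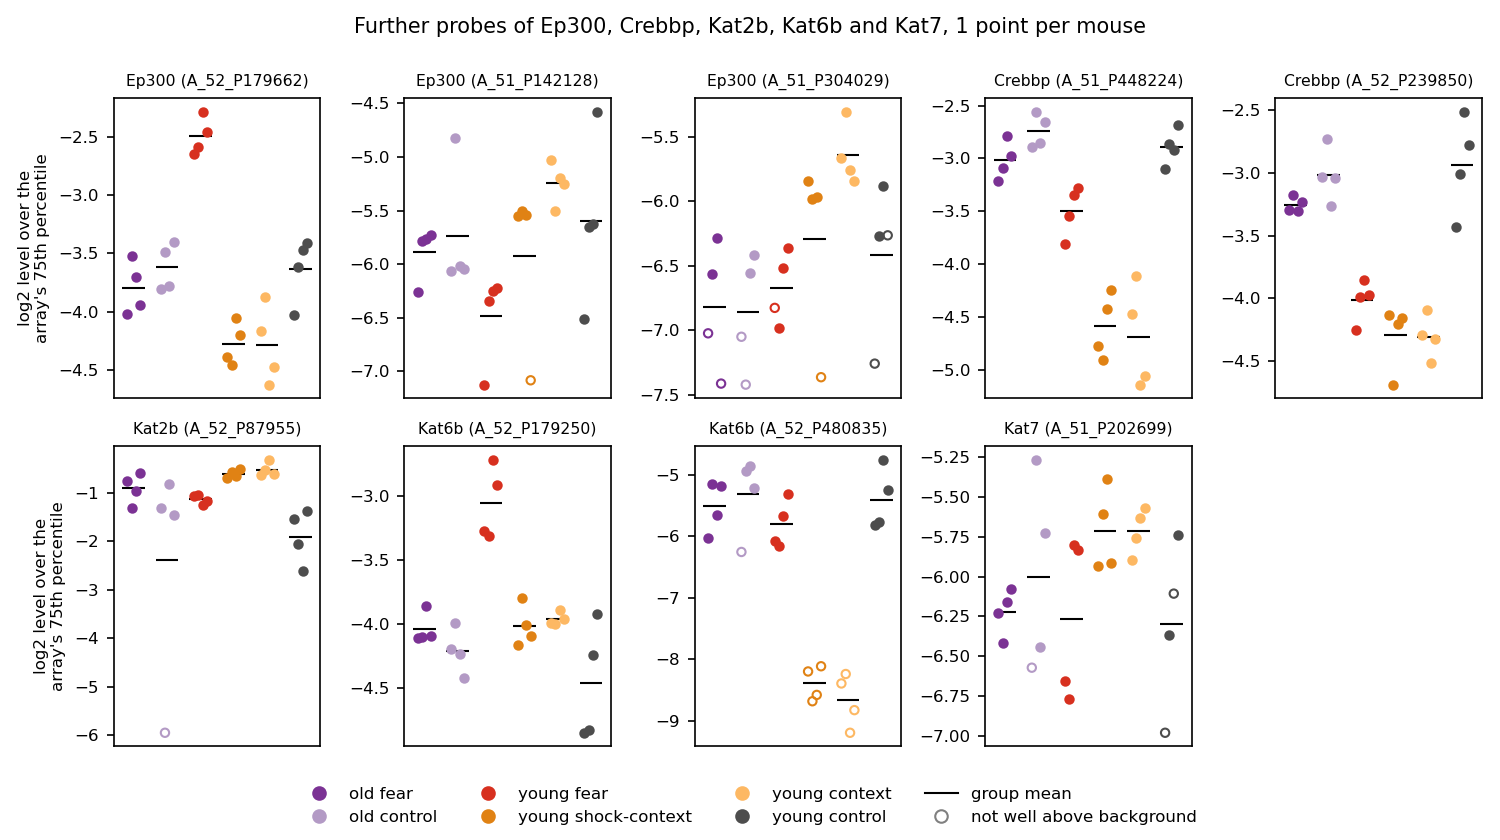
Levels of the further probes of Ep300, Crebbp, Kat2b, Kat6b and Kat7, as log2 of signal minus the 75th percentile of the array (vertical axes), for the 6 groups side by side (in the colours of the legend), with a point for each mouse, a black line for the group mean and open points for signals not well above background. The Kat2b probe A_52_P87955 has a lone old control point at -5.95, and the Kat6b probe A_52_P480835 is not well above background in any context or shock-context mouse.

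Kat2a (GCN5) and Kat2b (PCAF) are the alternative catalytic subunits of the SAGA and ATAC coactivator complexes and chiefly modify histone H3. Kat2a had -0.22, -0.20, -0.35 and -0.40 in young fear mice, against -1.36, -1.69, -0.88 and -1.08 in young control mice. The young fear arrays lay above all 20 others and close together, while the young control arrays were spread. The difference was 0.96 ± 0.19 (1.95-fold, adjusted p = 0.00033 by limma). Kat2b at A_51_P257762 (chr17:53811093-53811152) had -0.63, -0.69, -0.61 and -0.47 in young fear mice, against -0.53, -0.23, -0.47 and -0.75 in young control mice. These groups overlapped, and the difference of -0.11 had an interval of -0.36 to 0.15. At A_52_P87955, printed above, the levels were -1.07, -1.05, -1.26 and -1.17 in young fear mice, against -1.55, -2.06, -2.61 and -1.38 in young control mice. The groups did not overlap, but the spread over all groups at this probe was large (SD 2.39 in old control mice, from 1 array at -5.95), and the difference of 0.76 ± 0.67 was not called in the fit of all groups (adjusted p = 0.355). With only the arrays of these groups in the fit, Kat2b at this probe was called (adjusted p = 0.0324).

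Kat6a (MOZ) and Kat6b (MORF) are paralogues that work in complexes with BRPF scaffold proteins and modify histone H3. Kat6a had -6.19, -5.81, -5.17 and -5.23 in young fear mice, against -4.78, -4.60, -3.89 and -3.91 in young control mice. Again the young fear arrays lay below all 20 others, and the difference was -1.30 ± 0.27 (2.47-fold lower, adjusted p = 0.000448 by limma), with slide differences of -1.41 to -1.20. It was -1.13 with normexp, where the call was lost (adjusted p = 0.154), and -0.44 in the deposited values. Kat6b moved the other way. At its last probe, A_51_P176459 (chr14:22490755-22490814), it had 0.74, 0.62, 0.79 and 0.73 in young fear mice, against -0.14, 0.05, 0.01 and -0.14 in young control mice. This was the call of smallest adjusted p among the 19 probes: 0.78 ± 0.09 (1.71-fold, adjusted p = 1.12e-06 by limma). A_52_P179250, 150225 bases upstream, had -3.27, -3.31, -2.72 and -2.91 in young fear mice, against -4.85, -4.83, -4.24 and -3.92 in young control mice, a difference of 1.41 ± 0.17 (2.65-fold) that came to 0.34 with normexp (adjusted p = 0.586). At both probes the young fear arrays lay above all 20 others. The third Kat6b probe, A_52_P480835, lies 153539 bases upstream of the last one, and its difference of -0.40 (interval -1.05 to 0.24) was not called.

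Kat7 (HBO1) acetylates histones H3 and H4 with JADE or BRPF partners and acts at replication origins and promoters. At A_52_P85156 (chr11:95135876-95135935) it had 1.18, 1.31, 1.54 and 1.43 in young fear mice, against 0.80, 0.63, 0.79 and 0.91 in young control mice. The young fear arrays were above all 20 others, with a difference of 0.58 ± 0.09 (1.5-fold, adjusted p = 3.81e-05 by limma). Its other probe, A_51_P202699, 27940 bases upstream, was well above background on 2 of 4 young control arrays and differed by 0.03 (interval -0.55 to 0.62). Kat8 (MOF), the main enzyme for lysine 16 of histone H4, had at chr7:135069179-135069238 levels of 2.35, 2.48, 2.14 and 2.11 in young fear mice, against 2.83, 2.87, 3.17 and 2.71 in young control mice. The difference was -0.62 ± 0.11 (1.54-fold lower, adjusted p = 6.48e-05), or -0.35 relative to the median of all probes. The young fear arrays were below those of every other control and fear group, overlapped the shock-context arrays and lay above the context arrays.

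Counted over the array, all 4 young fear values lay outside the range of the other 12 control and fear arrays at 12 of 19 acetyltransferase probes, 6 above and 6 below, while this held for 29.8% of all probes. Outside the range of all 20 other arrays lay 9 of 19, with 6 above and 3 below, against 15% of all probes. The called genes of one direction do not share a family: Hat1 fell and Kat2a rose among the GNAT enzymes, Crebbp fell and Ep300 rose at its called probes among the coactivators, and Kat6a and Kat8 fell and Kat6b and Kat7 rose among the MYST enzymes.

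After fear conditioning at 16 months, 0 of the 19 probes were called (limma, smallest adjusted p = 0.350), where 0.126% of all tested probes were called (0.111% higher and 0.0155% lower). A single probe, Kat2b A_52_P87955, had an unadjusted p under 0.05. Its levels were -0.75, -1.32, -0.97 and -0.59 in old fear mice, against -1.32, -5.95, -0.82 and -1.46 in old control mice, and the groups overlapped apart from the lone array. Each of the 12 probes called at 3 months had an interval that included 0 at 16 months. Kat6b at A_51_P176459 had -0.11, -0.07, -0.17 and -0.01 in old fear mice, against -0.26, 0.19, -0.18 and -0.27 in old control mice, a difference of 0.04 (interval -0.15 to 0.23). Kat2a had -1.50, -1.50, -1.21 and -1.42 in old fear mice, against -1.09, -0.63, -1.47 and -1.28 in old control mice, and its difference of -0.29 (interval -0.69 to 0.10) had the opposite sign from that at 3 months. Kat6a differed by -0.16 (interval -0.71 to 0.40), Kat8 by -0.18 (-0.40 to 0.04) and Kat7 at A_52_P85156 by -0.09 (-0.28 to 0.11). For Ep300 at A_52_P179662 the old groups differed by -0.18 (interval -0.53 to 0.17), and for Crebbp at A_52_P239850 by -0.23 (interval -0.58 to 0.11).

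**Figure D3:**
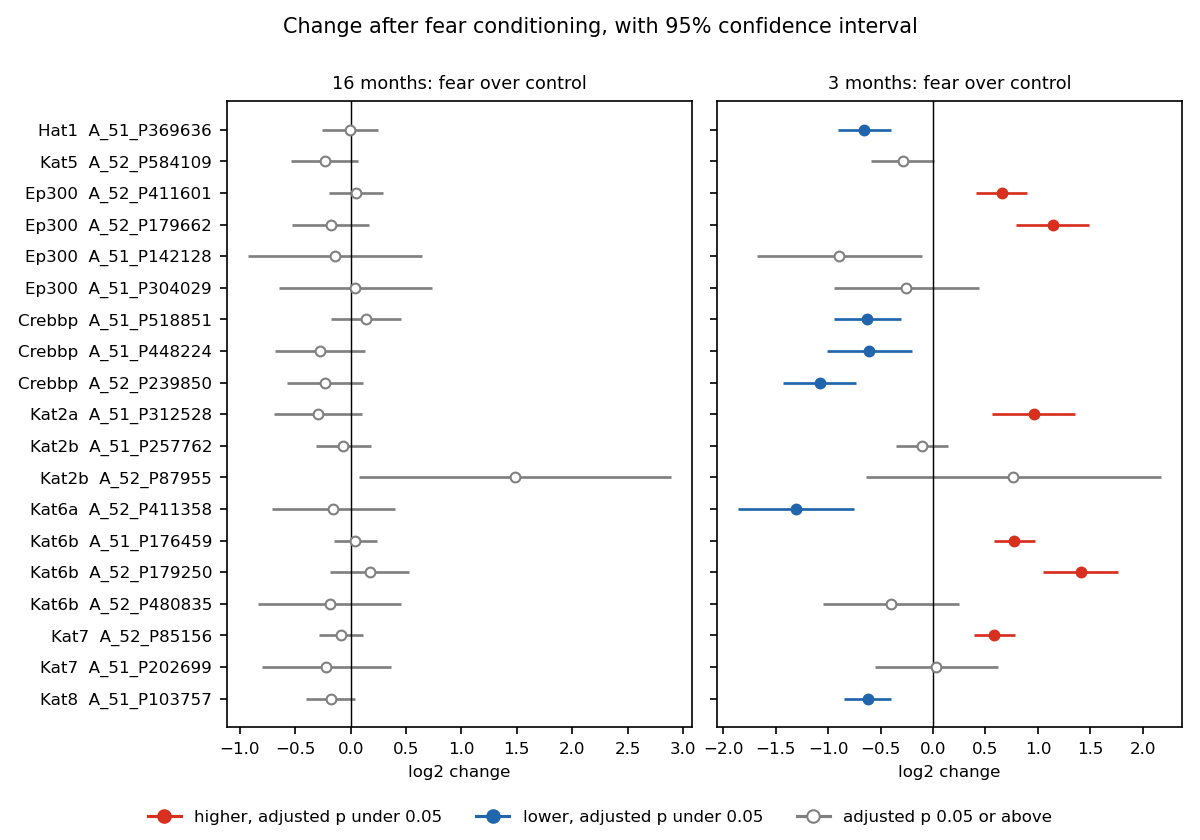
Difference in log2 level (horizontal axis) between old fear and old control mice on the left and between young fear and young control mice on the right, for each of the 19 tested probes (vertical axis), with 95% intervals, filled red points for called higher, blue points for called lower and open grey points for not called. In the left panel 0 probes are called, and in the right panel 6 are called in each direction.

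The difference between the ages was tested directly, as the old fear change minus the young fear change. It was called for 11 of 19 probes (5 positive and 6 negative), against 25.9% of all tested probes (14.3% positive and 11.5% negative). Hat1 differed between the ages by 0.64 ± 0.17 (adjusted p = 0.00788 by limma) and Kat2a by -1.26 ± 0.27 (adjusted p = 0.00153). Kat6b differed by -0.74 ± 0.13 at A_51_P176459 (adjusted p = 0.000315) and by -1.24 ± 0.24 at A_52_P179250 (adjusted p = 0.000764). Ep300 at A_52_P179662 differed by -1.32 ± 0.24 (adjusted p = 0.000331) and Kat7 at A_52_P85156 by -0.67 ± 0.13 (adjusted p = 0.000784). The remaining calls were Ep300 at A_52_P411601, Crebbp at A_51_P518851 and A_52_P239850, Kat6a and Kat8. With normexp the calls left were those of Hat1, Kat2a, Kat7 and Kat6b at A_51_P176459, while Ep300 at A_52_P179662 came to -0.51 (adjusted p = 0.634) and Kat6b at A_52_P179250 to -0.25 (adjusted p = 0.819). Kat5 did not differ beyond its error, at 0.06 with an interval of -0.37 to 0.48, and the test allows a difference of either sign up to those bounds. With replicates 1 and 2 and replicates 3 and 4 averaged before the fit, 4 of the 11 calls were left, with adjusted p of 0.0922 for Hat1 and 0.0568 for Kat2a. The calls of Kat6a and Kat8 were also lost on leaving out single arrays, 6 for Kat6a (adjusted p 0.0502 to 0.0666) and 7 for Kat8 (0.0554 to 0.0756). In this comparison 14 of 14 choroid plexus markers were called, all in the positive direction. The part of the markers was not tested.

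Between old control and young control mice, 0 of the 19 probes were called by limma, where 0.547% of all probes were called (0.356% higher and 0.191% lower). A single probe had an unadjusted p under 0.05, Kat7 at A_52_P85156, with 1.01, 1.05, 0.85 and 1.04 in old control mice, against 0.80, 0.63, 0.79 and 0.91 in young control mice. Its difference was 0.20 (interval 0.01 to 0.40, adjusted p = 0.513), and 1 array, at 0.85, lay within the young control range. Hat1 differed by -0.02 (interval -0.27 to 0.23) and Kat5 by 0.07 (interval -0.23 to 0.38). Between the trained mice, old fear against young fear, 11 of 19 probes were called (5 higher and 6 lower) against 39.9% of all probes (22.9% higher and 17% lower). This comparison shares the young fear arrays with the training comparison at 3 months, so the values are given beside it without further reading. In old fear mice Hat1 was higher by 0.62 ± 0.12, Kat6a by 1.42 ± 0.27 and Kat8 by 0.43 ± 0.11, and Kat2a differed by -1.12 ± 0.19, Kat6b at A_51_P176459 by -0.81 ± 0.09 and Kat7 at A_52_P85156 by -0.47 ± 0.09. The choroid plexus markers were all 14 higher in old fear than in young fear mice.

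Exploring the chamber after the shock or without it made no difference that was called for any acetyltransferase. Between shock-context and context mice, which were scanned together, 0 of 19 probes were called by limma and 0 had an unadjusted p under 0.05, and 0 of all tested probes (0%) were called. Hat1 had 0.51, 0.58, 0.35 and 0.44 in shock-context mice, against 0.50, 0.34, 0.50 and 0.62 in context mice. These overlapped fully, and the difference of -0.02 had an interval of -0.27 to 0.23. Kat5 had 0.74, 0.83, 0.91 and 0.90 in shock-context mice, against 0.74, 0.68, 0.39 and 0.73 in context mice, and its difference was 0.21 (interval -0.09 to 0.51). The widest intervals were those of Kat2b at A_52_P87955 (-1.49 to 1.32) and Ep300 at A_51_P142128 (-1.46 to 0.11).

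Against the groups of the other scan run, young fear mice differed in 15 of 19 probes from context mice (10 higher and 5 lower, where 65.9% of all probes were called, 46.1% higher and 19.8% lower) and in 12 from shock-context mice (9 higher and 3 lower, where 64.9% were called, 46% higher and 18.9% lower). Run and group cannot be told apart here, and the median over all probes was 0.31 in both comparisons. Hat1 was lower in young fear than in context mice by a log2 difference of -1.23 ± 0.12 and than in shock-context mice by -1.21 ± 0.12, and Kat6a by -2.99 ± 0.27 and -2.65 ± 0.27, the second of which was not called with normexp (-1.26, adjusted p = 0.0781). Kat2a was higher by 0.83 ± 0.19 and 0.77 ± 0.19, Kat6b at A_51_P176459 by 0.76 ± 0.09 and 0.88 ± 0.09, and Ep300 at A_52_P179662 by 1.79 ± 0.17 and 1.78 ± 0.17. The other Ep300 probes disagreed: against context mice A_51_P142128 differed by -1.24 ± 0.38 (adjusted p = 0.00672) and A_51_P304029 by -1.03 ± 0.33 (adjusted p = 0.0100), calls that ended with normexp (-0.01 and 0.32), and against shock-context mice neither was called. Crebbp at A_51_P518851 was lower, with differences of -0.74 ± 0.15 and -0.77 ± 0.15. At A_51_P448224 Crebbp went the other way and was higher by 1.20 ± 0.20 and 1.09 ± 0.20, so that the Crebbp probes disagreed across runs. The GC content of the probe was 35% at A_51_P518851 and 56.7% at A_51_P448224. Over all probes the differences across runs varied with GC content, and its part here was not tested.

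Context mice differed from young control mice in 12 of 19 probes (4 higher and 8 lower, where 68.8% of all probes were called, 18.4% higher and 50.4% lower), and shock-context mice in 11 (3 higher and 8 lower, where 65.4% were called, 16.1% higher and 49.3% lower), again across the runs and with medians over all probes of -0.36 and -0.33. Kat6a was higher in context than in young control mice by 1.69 ± 0.27 and in shock-context mice by 1.35 ± 0.27, and Hat1 by 0.57 ± 0.12 and 0.55 ± 0.12. With normexp both Kat6a calls ended, at 0.41 in context (adjusted p = 0.511) and 0.13 in shock-context mice (adjusted p = 0.845). Kat5 was lower in context mice, at -0.60 ± 0.15, a call that median scaling ended (-0.25, adjusted p = 0.0944). In shock-context mice Kat5 differed by -0.39 ± 0.15, and that call was lost with median scaling (-0.013, adjusted p = 0.938), with normexp (0.192), with array pairs as a random block (0.0614), without young control replicate 3 (0.0957) and without shock-context replicate 1 (0.0605). Kat6b at A_52_P480835 was not well above background on any context or shock-context array, so only a bound can be given: young fear mice were at least 1.81-fold higher than context mice and at least 1.59-fold higher than shock-context mice. Context mice were at least 2.39-fold lower than young control mice at this probe, and shock-context mice at least 2.10-fold lower.

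**Figure D4:**
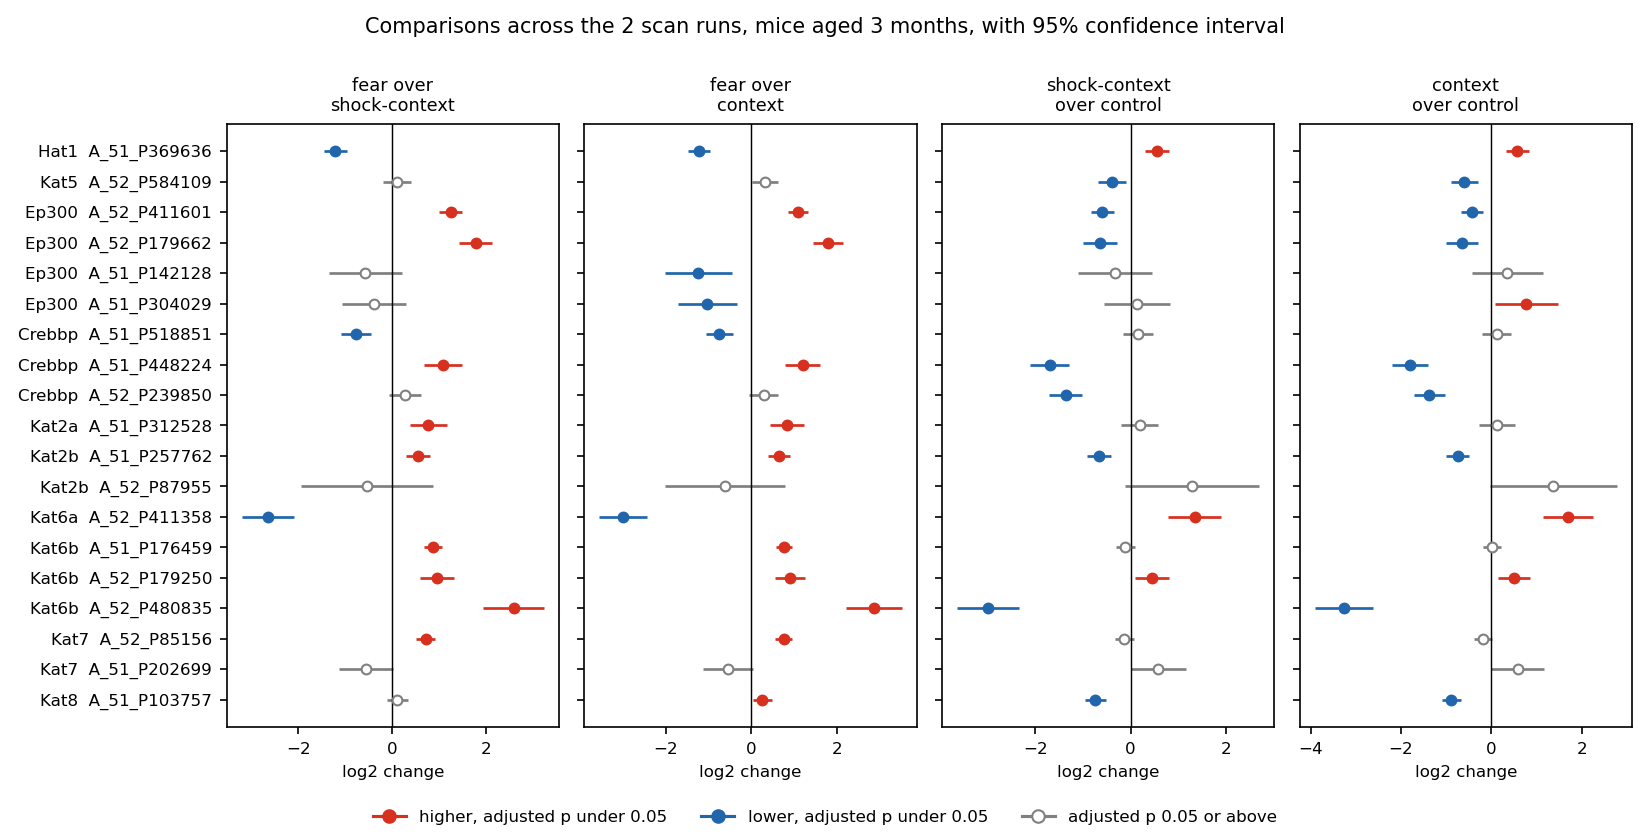
Differences in log2 level (horizontal axes) for the 19 tested probes (vertical axis) in the 4 comparisons across the scan runs, all in mice aged 3 months, with 95% intervals, filled red points for called higher, filled blue points for called lower and open grey points for not called. Hat1 and Kat6a lie left of 0 in young fear against shock-context and context mice, and right of 0 in shock-context and context mice against young control mice.

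Genes of the subunits that carry these enzymes were called about as often after training at 3 months as probes over the whole array. Of 52 measured genes in the TIP60, SAGA and ATAC, MOZ, MORF and HBO1, and MSL and NSL complexes and among the chaperones of Hat1, 9 were called higher and 15 lower in young fear than in young control mice, with a median difference of -0.05, a count near the array-wide 44.6% (17.2% higher and 27.5% lower), and 0 of 52 were called at 16 months. Among 15 genes of the TIP60 complex, 1 was higher and 6 were lower. Vps72, which handles the histone variant H2A.Z, was higher by 1.59 ± 0.29 (adjusted p = 0.000153 by limma), and Ing3, a reader of methylated histone H3, fell by 0.79 ± 0.13 on the log2 scale. Dmap1 and Morf4l1 fell by 0.39 ± 0.09 and 0.61 ± 0.14 on that scale. The difference between the ages was called for Vps72 (-1.39 ± 0.41) and Ing3 (0.93 ± 0.19).

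In the SAGA and ATAC complexes, which hold Kat2a and Kat2b, 18 of 19 genes were measured, and 4 were higher and 4 lower in young fear than in young control mice, again near the array-wide 44.6%. Usp22, the ubiquitin protease of SAGA, was higher by 1.36 ± 0.16 (adjusted p = 1.09e-06 by limma) and Tada3, an adaptor that binds the catalytic subunit, by 0.84 ± 0.10. Eny2, which sits beside Usp22 in the same module, fell by 0.99 ± 0.14 on the log2 scale, and Tada2a, the adaptor of ATAC, fell by 0.54 ± 0.11. All 4 differed between the ages, by -1.54 ± 0.23, -0.92 ± 0.15, 1.04 ± 0.20 and 0.58 ± 0.15 in that order. In the next lists too, counts stand beside that 44.6%, and differences between the ages beside 25.9% of all probes. Of 9 genes for the complexes of Kat6a, Kat6b and Kat7, the scaffolds Brpf3 (1.37 ± 0.29) and Jade2 (0.50 ± 0.10) were higher and the subunits Ing4 (-0.72 ± 0.10) and Meaf6 (-0.89 ± 0.15) lower. Of 8 measured genes of 9 for the complexes of Kat8, Hcfc1 (0.88 ± 0.12) and Phf20 (0.32 ± 0.12) were higher, and Msl1 (-0.83 ± 0.12) and Msl3 (-0.66 ± 0.14) were lower.

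Hat1 works with the histone chaperones Rbbp7 and Rbbp4. Rbbp4, which also belongs to other chromatin complexes, was lower in young fear than in young control mice, with a log2 difference of -1.53 ± 0.10 (adjusted p = 7.13e-10 by limma). Rbbp7, the chaperone usually bound to Hat1, differed by 0.05 ± 0.16 (adjusted p = 0.785). Between the ages the Rbbp4 change differed by 1.40 ± 0.13 (adjusted p = 8.53e-07), since at 16 months it was -0.12 ± 0.10. Of 4 genes that supply acetyl-CoA, Acly, which makes it from citrate, was higher by 0.70 ± 0.12 (adjusted p = 8.38e-05) and Slc25a1, the mitochondrial citrate carrier, by 0.66 ± 0.25 (adjusted p = 0.0357). Acss2, which makes it from acetate, and Crat, which exchanges it with carnitine, were not called (0.27 ± 0.13 and 0.91 ± 0.76). The Acly change differed between the ages by -0.72 ± 0.17 (adjusted p = 0.00331). Of 9 other proteins with reported acetyltransferase activity, 2 were higher and 3 lower in young fear than in young control mice (44.6% of all probes were called), among them Naa40 (0.68 ± 0.10) and Gtf3c4 (-0.68 ± 0.10). In each of these lists 0 genes were called at 16 months.

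Over the 16 control and fear arrays and 19269 genes, the levels most like those of Hat1 were those of BC064078 (Pearson r = 0.947), Bcap31 (0.945) and Selenos (0.944). Without the young fear arrays these fell to 0.714, 0.797 and 0.739 over 12 arrays. For Kat5 they were 1700001K19Rik (0.957), Twf2 (0.955) and Carnmt1 (0.954), and without the young fear arrays 0.965, 0.961 and 0.948. These are descriptions of arrays that share batches and group means, and carry no test.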

How the data were processed

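Each of 24 Agilent 1-colour arrays received hippocampal RNA of 1 mouse. Per the labels, 600 ng of total RNA with an integrity number of 9 to 10 was amplified with Cy3. The deposited scanner output, written by Agilent Feature Extraction 9.5.3.1 per the file headers, gives the intensity of every spot as processed, mean and background signal. Its other deposited columns mark spots that are outliers or well above background. The values of the authors' deposited matrix were taken as log2, on the evidence of the values and not of a label, and served as an alternative.

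Levels are log2 of the processed signal minus the 75th percentile of each array. Control spots were left out, outlier spots set to missing, spots of a probe averaged, and a probe was kept where 4 or more arrays had it well above background (38768 of 41174). Limma 3.58.1 (R 4.3.3, statmod 1.5.0) fitted 6 group means on 18 residual degrees of freedom. Two-sided tests of 10 comparisons had Benjamini-Hochberg adjustment over all kept probes. The fit alone, not the normalization or the filter, was run on simulated data. The simulated noise was independent between arrays, so resemblance between arrays was not part of that check. The number of arrays limits the precision. Partner genes, each represented by its kept probe of highest mean, were named by rule: up to 4 called genes of smallest adjusted p per list, and uncalled members of lists of 4 or fewer. The acetyltransferases, partner lists and marker lists were chosen with earlier results of these data known. Probes were matched to RefSeq genes by accession (25097 probes) or else by gene name or synonym (8649), and 7428 had no match. A single tissue sample per mouse stands behind each array, so p-values measure the spread between mice and arrays together.

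Slides 1 to 4 each held 1 array of every control and fear group, and the slide number was the replicate number. Of 24 same-numbered pairs between groups, 15 had deviations correlating above 0.1 (range -0.422 to 0.646). The consensus correlation within slides was 0.182. The main fit nevertheless treated same-numbered mice as unpaired, and the slide served as a block in an alternative fit. With that block, young fear against young control had 21089 calls over all probes, against 17307 in the main fit. Alternatives were other background correction, scaling, filters, blocks, 1 probe per gene, the deposited values and each array left out; averaging of array pairs was chosen after seeing the data.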

Additional observations from a re-analysis of the deposited data

Results flagged for a closer look

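The training change differed between the ages for 11 probes, as the old fear change minus the young fear change, by limma: Hat1 by 0.64, Ep300 by -0.61 at A_52_P411601 and -1.32 at A_52_P179662, and Crebbp by 0.76 at A_51_P518851 and 0.85 at A_52_P239850. Kat2a differed by -1.26, Kat6a by 1.15, Kat7 at A_52_P85156 by -0.67 and Kat8 by 0.44. Kat6b differed by -0.74 at A_51_P176459 and by -1.24 at A_52_P179250. Adjusted p ran between 0.000315 (Kat6b at A_51_P176459) and 0.0331 (Kat8). In these arrays the choroid plexus markers were low in young fear mice only (summed level 2.30 to 5.56, against 31.3 to 84.2 over the other groups), and their part was not tested.

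A lone array, far from the other 3 of its group, was seen 15 times among 114 groups of 4 levels, where chance gives about 1 in 20. Hat1 was high in old fear replicate 3 (0.089). Kat5 was low in context replicate 3 (0.39) and high in old control replicate 2 (1.89). Ep300 at A_51_P142128 had 4 such arrays: young fear replicate 1 (-7.12), old fear replicate 1 (-6.26), shock-context replicate 4 (-7.08) and old control replicate 2 (-4.83). Shock-context replicate 4 was also low for Ep300 at A_51_P304029 (-7.36) and for Kat6a (-3.77), and shock-context replicate 2 for Crebbp at A_52_P239850 (-4.69). Kat2b at A_52_P87955 was low in old control replicate 2 (-5.95). Context replicate 3 was low for Kat6a (-2.99), Kat7 at A_52_P85156 (0.43) and Kat8 (1.93). Kat6b at A_52_P179250 was high in old fear replicate 3 (-3.85).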

How the results depend on the processing

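The direction of the 12 young fear against young control calls held under all alternatives and with each array left out, where 11 to 13 probes were called. With normexp background correction 6 probes were called there, 4 for the difference between the ages and 6 for old fear against young fear; the deposited values gave 7 and averaged array pairs 4 for the difference between the ages. Leaving out each array gave 9 to 11 for the difference between the ages, 10 to 12 for old fear against young fear, 0 to 0 for training at 16 months, for age in controls and for shock-context against context, 14 to 16 for young fear against context, 12 to 14 against shock-context, and 10 to 12 for context and for shock-context against young control. With 1 probe per gene, 10 probes in all, 9 were called for young fear against context. There were 6 each for context and for shock-context against young control. Over all 25627 genes, 16908, 18032 and 17117 were called in these comparisons, in that order. Over all 38768 probes, young fear against young control had 7025 calls with normexp and 11320 with array pairs averaged. The difference between the ages had 2646 and 4155, and 8400 with the deposited values. Old fear against young fear had 7463 with normexp. Under quantile normalization 4570 of 10318 calls for the difference between the ages were positive (5562 of 10032 with the 75th percentile), and 7112 of 15379 were higher in old fear than in young fear (8872 of 15455). Across the runs, 11800 of 25060 were then higher in context (7147 of 26688) and 11342 of 23568 in shock-context (6244 of 25367) than in young control mice, and 13104 of 23424 (17880 of 25544) and 12254 of 22450 (17823 of 25144) were higher in young fear than in context and shock-context mice.

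With normexp the young fear against young control calls were lost with smaller differences for Ep300 (0.41 at A_52_P411601 and 0.36 at A_52_P179662) and Kat6b at A_52_P179250 (0.34). They were lost with differences of about the same size for Crebbp (-1.10 at A_52_P239850, adjusted p 0.0677, and -0.74 at A_51_P448224, 0.180) and Kat6a (-1.13). The cause was not tested. For the difference between the ages normexp lost Ep300 and Crebbp at their 2 called probes each, Kat6a, Kat8 and Kat6b at A_52_P179250. Averaged array pairs also lost Crebbp at A_51_P448224 (0.173), a construction with fewer samples. For the difference between the ages, Kat6a lost its call without young control replicate 3 or 4, young fear replicate 1 or 2, or old fear replicate 3 or 4, and Kat8 without young control replicate 3, old control replicate 1 or 3, young fear replicate 3 or 4, or old fear replicate 1 or 2. For old fear against young fear, Crebbp at A_51_P518851 lost its call without old fear replicate 2 (0.0627).

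With the slide, which is the replicate number, as replicate block, 13 probes were called in young fear against young control. The added one was Ep300 at A_51_P142128 (adjusted p = 0.0291 by limma). The counts were 11 for the difference between the ages and 12 for old fear against young fear. They were 0 for training at 16 months, for age in controls and for shock-context against context. Over all 38768 probes (38766 in the last comparison) the counts were 21089, 11793, 17850, 96, 314 and 1, in that order.

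The sign turned for these log2 differences, and the cause was not tested. Kat6b at A_52_P179250 came to 0.21 in old fear against young fear, -0.49 in context and -0.47 in shock-context against young control, all with normexp. Ep300 at A_51_P304029 with normexp came to -1.21 in context against young control and 0.32 in young fear against context. Ep300 at A_52_P179662 came to 0.18 (quantile) and 0.032 (deposited values) in context, and 0.22 and 0.064 in shock-context, against young control. Ep300 at A_51_P142128 came to 1.28 (quantile) and 0.53 (deposited values) in shock-context against young control. With median scaling Kat6b at A_51_P176459 came to 0.27 and Kat7 at A_52_P85156 to 0.25 in shock-context against young control. With quantile normalization Crebbp at A_52_P239850 came to -0.34 in young fear against shock-context.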

Other observations

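The Kat2b probe that was not tested, A_52_P642157 at chr17:53772372-53772431, was well above background on 1 of 24 arrays, in a context mouse. The GC content of the tested acetyltransferase probes had a median of 43.3% for the 6 called higher in young fear than in young control mice and of 45.0% for the 6 called lower. Across all 38768 tested probes, GC content had a Pearson r of -0.110 with the young fear against young control difference and -0.337 with the old fear against old control difference, across probes that share arrays.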
